A study of Mus musculus with 6 samples.

Results

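The p53 family loci were taken as 3 windows on mouse build mm9, around Trp63 (chr16:25650000-25930000), Trp53 (chr11:69385000-69415000) and Trp73 (chr4:153420000-153530000). Every H3K27ac peak that overlapped a window by at least 1 bp was a member, whatever its strength. The windows held 10 of 57101 peaks in proliferating cells, 18 of 89717 peaks after 36 h of differentiation and 26 of 97144 peaks after 72 h. Overlapping peaks of the 3 stages were merged, which gave 31 of the 112926 merged regions of the series, 26 of them at Trp63, 4 at Trp53 and 1 at Trp73. The cells were C2C12, an established mouse myoblast line that fuses into myotubes in culture, with no genetic change given in the labels. The groups were proliferating myoblasts, cells at 36 h and cells at 72 h of differentiation, each with 1 library of chromatin immunoprecipitated with an antibody to H3K27ac and 1 input library. Each H3K27ac library was made from DNA of 4 ChIP assays that had been combined, so the spread between cultures was not measured and no test between stages was possible. A difference between stages below is a difference between libraries.

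Acetylation of histone H3 at lysine 27 marks active promoters and enhancers. In pooled chromatin, a larger share of cells that carry the mark and more of the mark per cell cannot be told apart. The p53 family consists of p53 (Trp53), the tumour suppressor that halts the cell cycle or triggers apoptosis after damage, p63 (Trp63), best known for the formation of stratified epithelia, and p73 (Trp73), known for roles in neural development and multiciliated cells. Trp63 and Trp73 each have an upstream start that gives TA proteins, with the amino-terminal transactivation domain, and an internal start that gives the shortened ΔN proteins. The series addresses TAp63 in myogenesis. The windows lie among other genes. In the RefSeq order of protein-coding genes, Trp63 lies between Tprg and P3h2, Trp53 between Wrap53 and Atp1b2, and Trp73 between Ccdc27 and Wrap73. Trp53 and Wrap53 are transcribed away from each other, as are Trp73 and Wrap73. No mm9 annotation was used here, so peaks were not assigned to a start site, an exon or to either gene of such a pair.

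The letters at the annotated starts are shown because start sites are where H3K27ac is usually found at an active gene. RefSeq promoters on build GRCm38.p6 matched 2 of the 3 genes by symbol, with 1 promoter for Trp53 and 2 for Trp73. Their GRCm38.p6 positions cannot be set beside the mm9 positions of the peaks. The Trp53 promoter is chr11:69580109-69580408 on the plus strand. The upstream Trp73 promoter is chr4:154139826-154140125 and the internal one chr4:154097124-154097423, both on the minus strand. Each runs 5′ to 3′, and capitals mark E-boxes (CANNTG, the same on both strands), the motif read by MyoD, myogenin and other basic helix-loop-helix factors.
Trp53 promoter: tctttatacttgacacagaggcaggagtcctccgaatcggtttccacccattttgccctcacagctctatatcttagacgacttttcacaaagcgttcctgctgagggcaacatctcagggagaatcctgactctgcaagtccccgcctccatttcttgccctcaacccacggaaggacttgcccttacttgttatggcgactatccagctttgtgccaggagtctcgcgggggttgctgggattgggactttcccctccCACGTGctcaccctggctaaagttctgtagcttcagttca
Trp73 upstream promoter: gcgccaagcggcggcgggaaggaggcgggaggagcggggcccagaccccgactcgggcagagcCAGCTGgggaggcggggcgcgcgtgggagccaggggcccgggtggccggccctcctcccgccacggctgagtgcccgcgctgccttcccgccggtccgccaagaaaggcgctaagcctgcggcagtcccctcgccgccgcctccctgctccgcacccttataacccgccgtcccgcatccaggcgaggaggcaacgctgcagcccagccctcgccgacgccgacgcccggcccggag
Trp73 internal promoter: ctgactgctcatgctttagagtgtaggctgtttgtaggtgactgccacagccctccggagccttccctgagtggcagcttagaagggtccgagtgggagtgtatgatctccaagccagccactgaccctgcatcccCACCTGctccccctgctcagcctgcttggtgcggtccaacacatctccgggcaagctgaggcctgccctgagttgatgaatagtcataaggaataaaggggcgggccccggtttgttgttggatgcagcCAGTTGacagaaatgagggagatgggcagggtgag
E-boxes numbered 1 at Trp53, 1 at the upstream Trp73 start and 2 at the internal start, and 72.3% of 32851 RefSeq promoters of 300 bases held at least 1. The upstream Trp73 promoter was 77.7% G and C, above 97.9% of all promoters. The Trp53 promoter, at 52.7%, matched the median of all promoters, and the internal Trp73 promoter had 57.7%. The GC box (GGGCGG, either strand) occurred 1 time at the internal Trp73 start and at neither of the others, against 35.7% of all promoters. The p53 family decamer occurred 1 time at Trp53 and at neither Trp73 start, against 8.36% of all promoters. A TATA box (TATAAA, either strand) was matched 1 time, at Trp53, against 13.6% of all promoters. These matches describe the letters, and none of them was shown to be a bound site.

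The 3 loci differed in how H3K27ac peaks stood at the 3 stages. Trp63 held 5 peaks in proliferation, 13 at 36 h and 21 at 72 h. Trp53 held 4 peaks at each stage, and Trp73 held 1 at each stage. To read these counts, the genome was divided into tiles as long as each window. Of 280 kb tiles, 59.6% held at least 1 peak in proliferation, 62.2% at 36 h and 66.0% at 72 h. Of 30 kb tiles, as long as the Trp53 window, the shares were 21.2%, 27% and 29.6% in the same order. Of 110 kb tiles, as long as the Trp73 window, they were 42.5%, 47.1% and 50.8%. Fewer peaks than Trp63 were held by 62.2%, 73.1% and 81.3% of 280 kb tiles in the order of the stages. Fewer than Trp53 were held by 93.8%, 89.7% and 88.5% of 30 kb tiles. Fewer than Trp73 were held by 57.5%, 52.9% and 49.2% of 110 kb tiles. The whole list at 36 h had 1.57 times and that at 72 h 1.70 times the peaks of proliferation. Tiles cover genes and gene deserts alike, whereas each window was drawn around a gene, so a window with a peak is not in itself a result.

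Length under peaks separated the loci further. At Trp63 peaks covered 1697 bp in proliferation. They covered 4980 bp at 36 h and 10541 bp at 72 h. For the 3 stages in order this is 0.606%, 1.78% and 3.76% of the window. The 280 kb tiles had means of 3319, 5934 and 6748 bp and medians of 792, 1336 and 1947 bp. Trp63 was thus below the tile mean in proliferation and at 36 h, and above it at 72 h. It was above the tile median at every stage, and 59.3%, 67.9% and 78.1% of these tiles held less. At Trp53 the length was 2563, 3531 and 4004 bp in the order of the stages, or 8.54%, 11.8% and 13.3% of the window. Of the 30 kb tiles, 96.0% had less length under peaks than this in proliferation, 94.6% at 36 h and 94.7% at 72 h. At Trp73 the length was 245, 420 and 190 bp, or 0.223%, 0.382% and 0.173% of the window, compared with a mean of 1304, 2333 and 2654 bp per 110 kb tile. The medians of these tiles were 0, 0 and 162 bp, and 60.3%, 57.7% and 50.8% of them held less than Trp73. Trp73 was thus below the tile mean and above the tile median at every stage, and the first 96.4 to 96.5 kb of its window were without a peak at each stage.

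**Figure D1:**
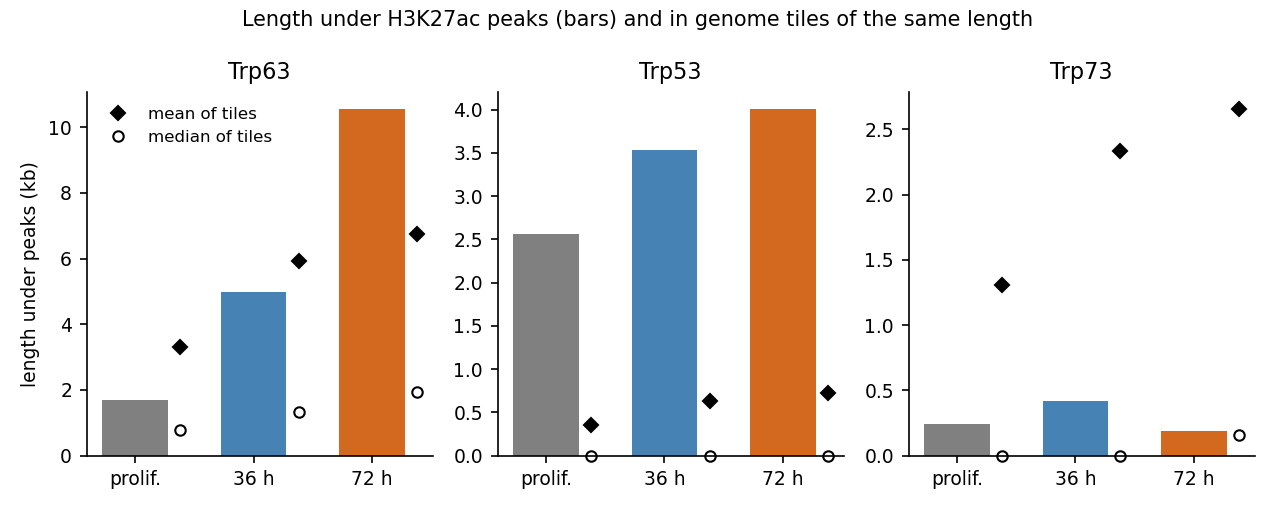
Length under H3K27ac peaks in kb (bars, left to right proliferation, 36 h and 72 h) in the windows of Trp63, Trp53 and Trp73, with the mean (diamonds) and median (circles) of genome tiles of the same length. Each bar is 1 library, and the vertical scales differ between loci. Trp63 is above its tile median at every stage and above its tile mean at 72 h only. Trp53 is above its tile mean at every stage, and Trp73 lies between the tile median and the tile mean at every stage.

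The difference between stages at Trp63 was larger than in most genome tiles with peaks at both stages compared. Length under peaks at 36 h was 2.93 times and at 72 h 6.21 times that of proliferation, whereas the whole lists differed by 1.79 and 2.03 times. At least 2 times the proliferation length was reached by 41.4% of 280 kb tiles at 36 h and by 51.4% at 72 h, over tiles with a peak at either of the 2 stages compared. Among tiles with peaks at both stages, 80.6% had a smaller ratio than Trp63 at 36 h and 92.2% at 72 h. Tiles with peaks at the later stage and none in proliferation have no ratio. They are left out of these shares, which would be lower with them counted as larger gains. Between the later stages, 72 h over 36 h, the Trp63 ratio was 2.12, above that of 88.2% of tiles with peaks at both. Trp53 was close to the middle of its tiles, with ratios of 1.38 at 36 h and 1.56 at 72 h over proliferation, above 46.2% and 50.7% of 30 kb tiles with peaks at both stages. It did not reach 2 times, which 48.2% of 30 kb tiles with a peak at either stage compared did at 36 h and 54.4% at 72 h. Trp73 had ratios of 1.71 at 36 h and 0.776 at 72 h over proliferation. The ratio at 72 h was above that of 9.30% of 110 kb tiles with peaks at both stages, and the ratio of 72 h over 36 h, 0.452, was above that of 2.81%. A ratio of at least 2 was reached by 43.9% of 110 kb tiles with a peak at either stage compared at 36 h and by 52.2% at 72 h. Each Trp73 ratio rests on 1 peak per list.

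Peak strength at Trp63 can be ranked within each list. The strongest peak, by the authors' fold of ChIP over local background at the summit, had a fold of 5.49 in proliferation, above 49.3% of that list. At 36 h the strongest had a fold of 7.88, above 69.6% of the 36 h list, and at 72 h 11.2, above 83.4% of the 72 h list. Folds depend on the local background of each library and are ranked here within their own list only. Libraries are compared by the number of fragments at a summit, which was recovered from the deposited fold and p-value and divided by the relative ChIP depth (1.19 at 36 h and 1.1 at 72 h, with proliferation set to 1). The Trp63 summits had 13 to 23 fragments in proliferation, with a median of 15. At the depth of the proliferation library their median was 12.6 fragments at 36 h and 19.2 at 72 h, and their highest 20.1 and 35.6.

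Of the 26 merged regions at Trp63, 21 had no proliferation peak, compared with 62.1% of all regions. Of these 21, 10 lay within 13.5 kb of each other, so the count depends on how finely peaks are split. Merging peaks within 1 kb left 8 regions without a proliferation peak, and the share of all regions at that setting was not computed. By stage, 11 of the 26 regions were called at 72 h only (23.9% of all regions), 7 at 36 h and 72 h (22.3%), 3 at 36 h only (15.9%), 3 in proliferation only (6.70%) and 2 at all 3 stages (25.6%). None was called in proliferation and 36 h or in proliferation and 72 h, classes that hold 1.70% and 3.95% of all regions. All 7 regions of 36 h and 72 h had more summit fragments per depth at 72 h, by 1.14 to 2.72 times with a median of 1.81. Over all such regions of the series, 65.5% were higher at 72 h and the median ratio was 1.16. At all 7 Trp63 regions the local background over the genome background was also higher at 72 h. The authors' fold did not rise at each of them. It was 6.91 at 36 h and 6.68 at 72 h at 25683818 to 25684806. It also fell at 25723477 to 25724215 (6.05 to 4.93) and 25818553 to 25819291 (7.88 to 6.88), and rose at the others. The part of the background was not tested. At 12 of the 21 regions without a proliferation peak, the highest summit of the later stages, scaled to the depth of that library, reached 18 fragments. That number sufficed for a call in proliferation at the 95% quantile of the local background of its peaks, and 9 fragments sufficed at the genome background. Over all regions without a proliferation peak, 33.2% reached 18 fragments. All these regions are known only from a later call, which selects for high later summits. The proliferation background at the uncalled places is not known, so these shares cannot show whether a call was possible there. The first proliferation peak lay 127 kb into the window. Before that point, which was set by the proliferation list itself, lay 7 of 13 peaks at 36 h and 13 of 21 peaks at 72 h, with 2.51 kb and 7.54 kb under them.

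**Figure D2:**
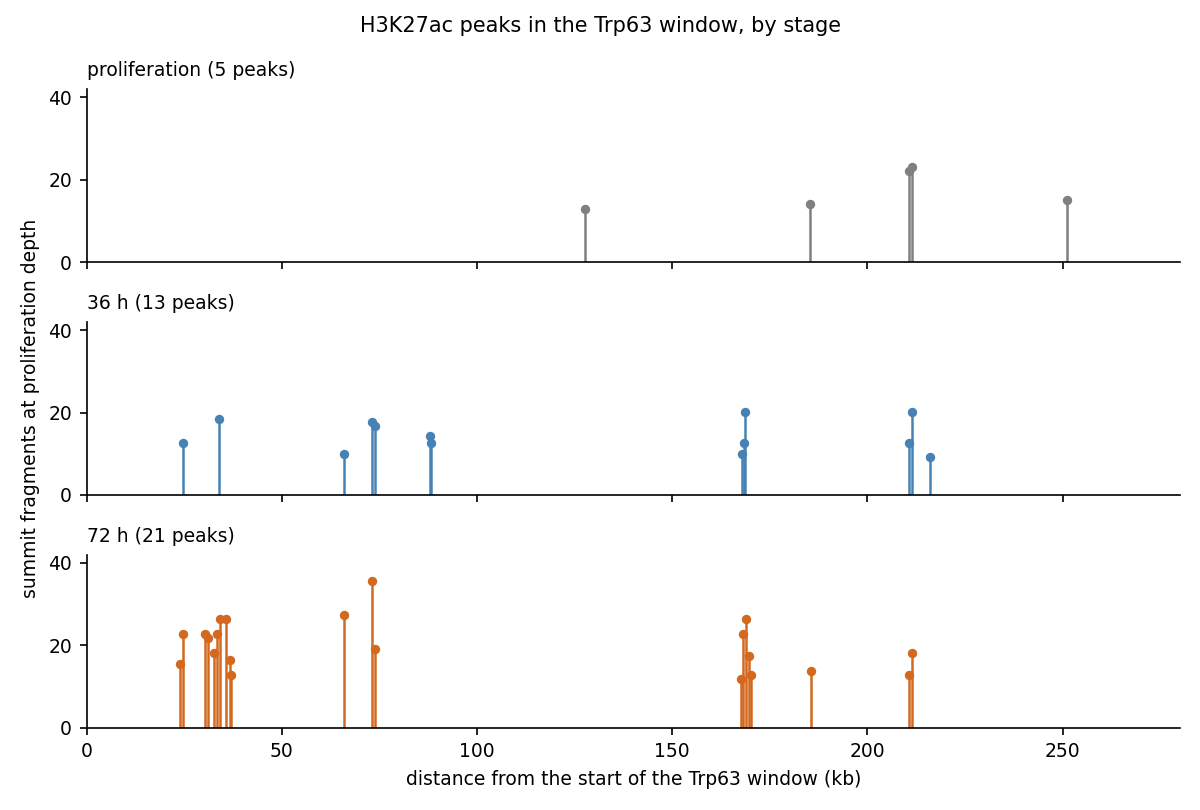
H3K27ac peaks along the Trp63 window in proliferation, at 36 h and at 72 h. Each line stands at a summit (distance from the window start in kb), with its height the summit fragments at the depth of the proliferation library. Peaks number 5, 13 and 21 from the upper to the lower row, and the first proliferation peak lies 127 kb into the window.

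Placed in stretches separated by more than 5 kb, a grouping chosen after the positions were seen, the Trp63 regions formed 9 stretches. The first, chr16:25673742-25687235, 23.7 to 37.2 kb into the window, held the most. It had no peak in proliferation, 2 peaks with 721 bp at 36 h and 10 peaks with 5636 bp at 72 h, of the 10541 bp in the window at that stage. Its widest peak at 72 h was 1280 bp (25684870 to 25686149) and was called at that stage only, with a fold of 6.68 and 29 summit fragments (exact Poisson 95% interval 19.4 to 41.6). The neighbouring region, 25683818 to 25684806, was also called at 36 h, with 29 summit fragments (19.4 to 41.6) at 72 h and 22 (13.8 to 33.3) at 36 h. Within this stretch the highest fold at 72 h was 8.34, at 25679901 to 25680561, with 25 fragments (16.2 to 36.9) and no peak at the other stages. The regions 25680762 to 25681363 (fold 7.21), 25683027 to 25683527 (fold 7.95) and 25673742 to 25674060 (fold 5.59) were likewise called at 72 h only. The remaining 4 regions of the stretch had folds of up to 4.71 at 72 h, and 1 of them was also called at 36 h. Such intervals cover counting error only, and a summit is the highest point of its peak.

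The strongest peak of the Trp63 window lay further on. In the stretch chr16:25722421-25724215, 72.4 kb into the window, the region 25722421 to 25723283 had 39 summit fragments (27.7 to 53.3) at 72 h, 21 (13.0 to 32.1) at 36 h, and no peak in proliferation. At the depth of the proliferation library these are 35.6 fragments (25.3 to 48.7) at 72 h and 17.6 (10.9 to 26.9) at 36 h. The intervals overlap. Beside it, 25723477 to 25724215 had 21 fragments at 72 h and 20 at 36 h. A region on its own, 25715591 to 25716156, had 30 fragments (20.2 to 42.8) at 72 h and 12 (6.2 to 21.0) at 36 h. Its ratio of 72 h over 36 h per depth, 2.72, was the largest of the 7 Trp63 regions called at 36 h and 72 h. At equal depth its intervals, 18.5 to 39.1 at 72 h and 5.20 to 17.6 at 36 h, did not overlap. Because the region was picked as the largest of 7, and 1 library stands for each stage, this is not a test between stages. The local background there was 1.06 times the genome background at 36 h and 1.85 times at 72 h.

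Another stretch without a proliferation peak, chr16:25817485-25820230, lay 167 kb into the window, with 5 peaks and 1966 bp at 72 h and 3 peaks and 1088 bp at 36 h. Its main region, 25818553 to 25819291, had 29 fragments (19.4 to 41.6) at 72 h and 24 (15.4 to 35.7) at 36 h, with a fold of 7.88 at 36 h, the highest of the window in that list. The region 25817485 to 25818294 had 2 peaks at each later stage, with up to 25 fragments at 72 h and 15 at 36 h. Of the others, 25819583 to 25819986 was called at 72 h only with a fold of 5.80, and the last had a fold of 4.44 at 72 h.

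Regions with a peak at all 3 stages lay in 1 stretch of Trp63, chr16:25860510-25866272, 211 kb into the window. The region 25861072 to 25862131, which had the most length under peaks over the 3 lists together, had a peak of 598 bp in proliferation. The peak was 1060 bp at 36 h and 616 bp at 72 h. Its summit had 23 fragments (14.6 to 34.5) in proliferation, 20.1 (12.9 to 29.9) at 36 h and 18.3 (11.1 to 28.2) at 72 h, all at the depth of the proliferation library. These intervals overlap. Beside it, 25860510 to 25860844 had 22 fragments (13.8 to 33.3) in proliferation. At that depth it had 12.6 (7.04 to 20.7) at 36 h and 12.8 (6.98 to 21.4) at 72 h, and these intervals overlap too. The ratios of 0.571 at 36 h and 0.581 at 72 h over proliferation were above those of 12.1% and 5.97% of the 28908 regions held by all 3 lists. The authors' folds there were higher at the later stages, at 3.95, 5.0 and 4.89 in the order of the stages. The local background was 2.97, 1.03 and 1.0 times the genome background in the same order, and its part was not tested. The third region of the stretch had 11 fragments and was called at 36 h only.

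**Figure D3:**
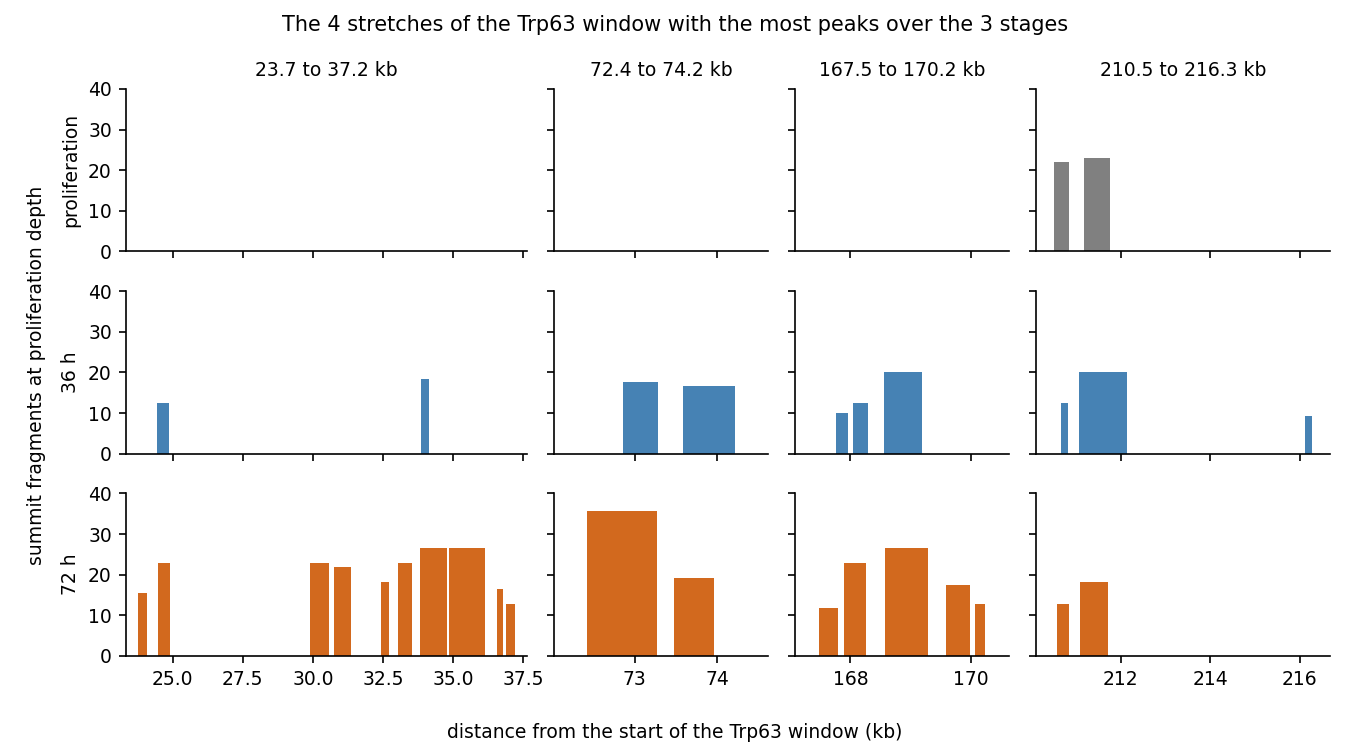
The 4 stretches of the Trp63 window with the most peaks, with each peak drawn over its own extent (distance from the window start in kb, the scale differing between columns). Rows are proliferation, 36 h and 72 h from top to bottom, and height is the summit fragments at the depth of the proliferation library. Proliferation has peaks in the stretch at 210.5 to 216.3 kb only, and the first stretch has 10 peaks at 72 h and 2 at 36 h.

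Weak regions made up the rest of Trp63. The 3 regions called in proliferation only had 13, 14 and 15 summit fragments, at 25777498 to 25777649, 25835206 to 25835482 and 25901068 to 25901402. Their folds of 3.70 to 4.66 were above 9.40% to 31.3% of the proliferation list. The second lay beside a region called at 72 h only, 25835594 to 25835740, with 15 fragments. At 36 h only, the regions 25737746 to 25737990 and 25738192 to 25738340 had 17 and 15 fragments, and the region with 15 had a fold of 5.09. Of the 6 regions with no peak at 72 h, 4 had summits at another stage that reached 14 fragments at the depth of the 72 h library. That number sufficed at the 95% quantile of its background, and 57.1% of all regions without a 72 h peak reached it. All 14 regions with no peak at 36 h reached the corresponding number of 15, compared with 70.9% of such regions in the series. The highest summit at the other stages was used each time, and the background at the uncalled stage is not known.

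Most of the acetylation at Trp53 lay at the same place at all stages. The main region, chr11:69393089-69395625, held 3 separate peaks with 2234 bp in proliferation, 1 peak of 2481 bp at 36 h and 1 peak of 2445 bp at 72 h. Its highest summit had 49.0 fragments (36.3 to 64.8) in proliferation, 64.5 (50.9 to 80.6) at 36 h and 63 (49.0 to 79.7) at 72 h at the depth of the proliferation library. The intervals overlap. Over proliferation the ratio was 1.32 at 36 h and 1.29 at 72 h, above 76.3% and 62.0% of the regions held by all 3 lists, whose medians were 1.0 and 1.14. The highest point was at 69394834 in proliferation, at 69393623 at 36 h and at 69393435 at 72 h, although a proliferation peak at 69393602 had nearly as many fragments (46). The authors' folds were 8.96 in proliferation, 24.3 at 36 h and 9.26 at 72 h, above 82.0%, 97.9% and 76.3% of their lists. The local background under the summit was 2.77 times the genome background in proliferation. At 36 h it was 1.0 times and at 72 h 3.70 times that background, and its part in the folds was not tested.

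A small region beside it, chr11:69392262-69392672, was called at every stage. It had 23.0 fragments (14.6 to 34.5) in the proliferation library. At the depth of that library it had 14.2 (8.30 to 22.8) at 36 h and 19.2 (11.9 to 29.3) at 72 h. The intervals overlap. Its folds were higher at the later stages, at 4.12, 5.71 and 4.93 in the order of the stages. The local background was 2.97, 1.0 and 1.85 times the genome background in the same order, and its part was not tested. The other 2 of the 4 regions of the window had no proliferation peak and lay further on, at chr11:69404717-69406323. The region 69405298 to 69406323 had 1 peak of 910 bp with 22 fragments (13.8 to 33.3) at 72 h, and 2 peaks with 711 bp and up to 20 fragments (12.2 to 30.9) at 36 h. The region 69404717 to 69404954 was called at 72 h only, with 15 fragments (8.4 to 24.7). Scaled to the proliferation library, the highest summits of these 2 regions were 20.1 and 13.7 fragments. The region called at both later stages reached the 18 fragments that sufficed in proliferation at the 95% quantile of background, and the other did not. The proliferation background at these places is not known.

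Trp73 had the same place acetylated at each stage and no other peak in its window. The region chr4:153516445-153516903 held a peak of 245 bp with 24 summit fragments (15.4 to 35.7) in proliferation, of 420 bp with 43 (31.1 to 57.9) at 36 h and of 190 bp with 28 (18.6 to 40.5) at 72 h. At the depth of the proliferation library these are 24.0, 36.0 and 25.6 fragments, with overlapping intervals. The ratio of 36 h over proliferation, 1.5, was above 84.9% of the regions held by all 3 lists, and that of 72 h over 36 h, 0.709, above 5.28%. The folds were 8.53, 10.3 and 4.85 in the order of the stages, above 79.7%, 80.5% and 34.6% of their lists. The local background was 1.0, 1.6 and 2.78 times the genome background in the same order, and its part in the folds was not tested. The region was not assigned to Trp73 or Wrap73.

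**Figure D4:**
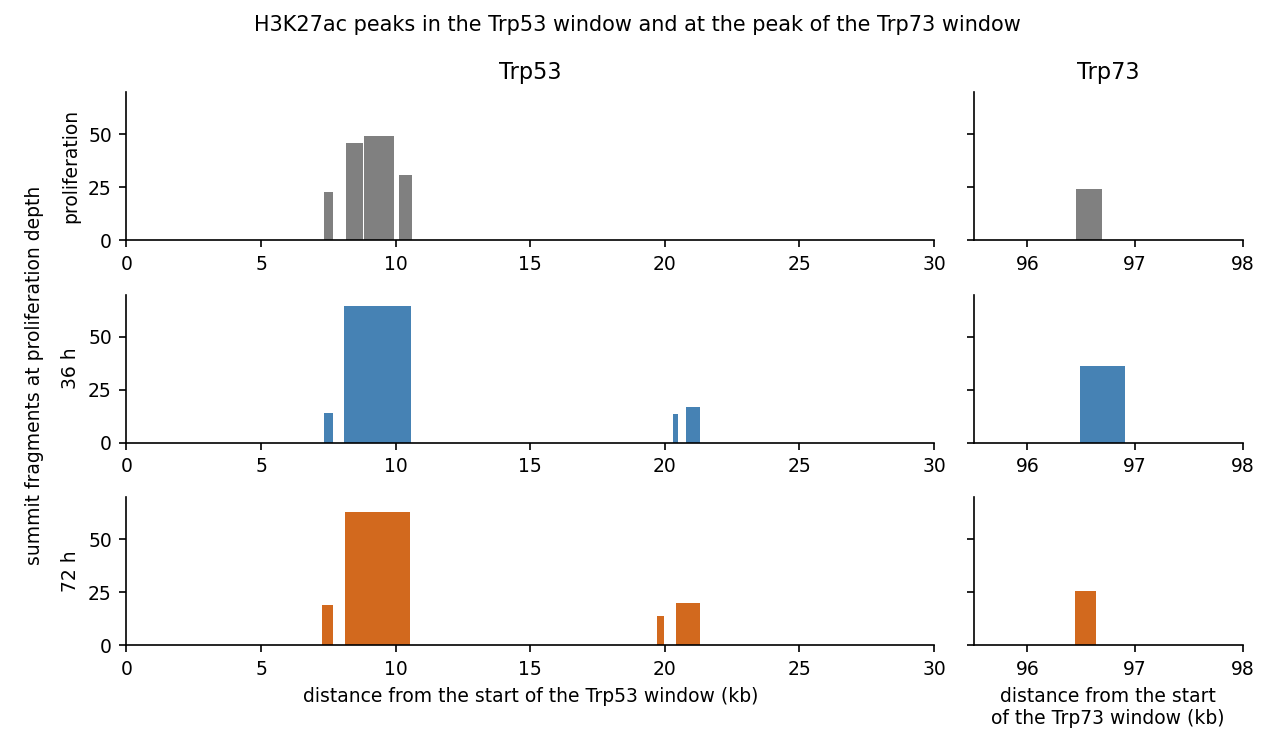
H3K27ac peaks over the Trp53 window (left) and around the peak of the Trp73 window (right), in rows for proliferation, 36 h and 72 h from top to bottom. Bars cover each peak's extent (distance from the window start in kb), and height is the summit fragments at the depth of the proliferation library. The Trp53 peaks near 20 kb are present at 36 h and 72 h only, and Trp73 has 1 peak at each stage.

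Local background moved with stage at the loci. Its median at Trp63 peaks was 1.98 times the genome background in proliferation. At 36 h it was 1.06 times and at 72 h 1.29 times that background. Over whole lists the medians were 1.94, 1.06 and 1.16 times. A higher background raises the number of fragments needed for a call, and its part in the counts was tested only as follows. In an alternative chosen with results known, later peaks had to pass at the depth and at no less than the median background of proliferation. Each later list kept its own smallest −log10 p as the cutoff, 2.99 at 36 h and 2.92 at 72 h. That of proliferation was stricter, at 3.24, and was not applied to the later lists. Peaks were kept or dropped whole, at their deposited width, so any narrowing was not tested. Trp63 then held 10 peaks at 36 h and 21 at 72 h, with 4275 and 10541 bp under them. With only the 57101 peaks of highest −log10 q in every list (ties ranked by −log10 p), Trp63 held 5 peaks in proliferation, 5 at 36 h and 14 at 72 h. In lists of equal length the window thus held no more peaks at 36 h than in proliferation, and more at 72 h.

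**Figure D5:**
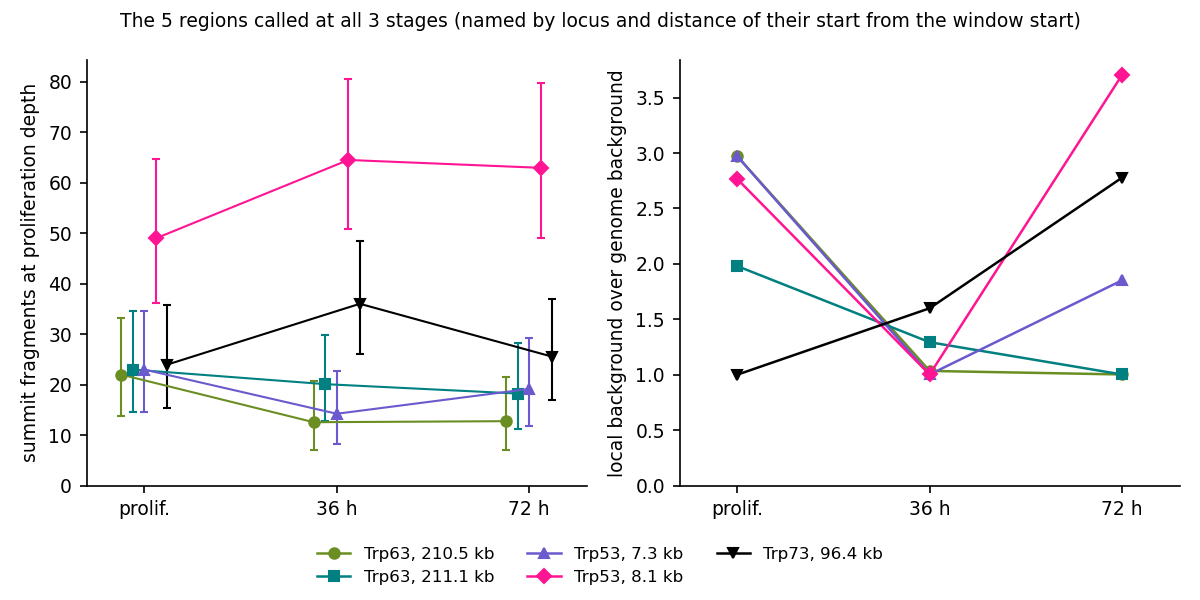
The 5 regions of the 3 loci called at all stages, named by locus and distance of their start from the window start. Left, summit fragments at the depth of the proliferation library with exact Poisson 95% intervals. Right, local background at the summit over the genome background of the library. The main Trp53 region has 49.0, 64.5 and 63 fragments, while its background is 2.77, 1.0 and 3.70 times that of the genome.

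Outside the Trp63 window, the nearest peak below it was 33.5 kb away in proliferation. At 36 h it was 46.1 kb and at 72 h 46.0 kb away. Above the window the distances were 47.1 kb in proliferation, 47.0 kb after 36 h and 11.5 kb after 72 h, so a peak lay closest at 72 h. Below the Trp53 window there was no peak for 153 kb in proliferation. At 36 h the gap was 111 kb and at 72 h 115 kb, and above the window it was 30.7, 20.6 and 20.6 kb. Just above the Trp73 window, 4.15 to 4.45 kb away, a peak had 17 fragments in proliferation, 41 at 36 h and 45 at 72 h. Below that window, 33.1 to 33.6 kb away, a peak had 27, 49 and 67 fragments. These counts are not scaled for depth. Unscaled, the Trp73 region itself had 24, 43 and 28.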

How the data were processed

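H3K27ac ChIP-seq of C2C12 cells was analysed from 1 deposited peak list per stage (3 H3K27ac libraries; the 3 inputs were not analysed here). Per the submitters' processing notes, BWA, MACS2 and deepTools were used with mm9; which versions or settings is not given in the sources used here. Each deposited row holds a fold (ratio of ChIP to background at the summit), a −log10 p and −log10 q, a score (not used) and a summit offset, per the narrowPeak column order. The smallest deposited −log10 q was 1.32, 1.32 and 1.30.

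Read totals are not given. MACS2 takes fold as (pileup + 1) / (background + 1) and p as a Poisson tail, so whole summit fragments and the local background were solved from both, with 1 scale factor per library (0.673, 0.698 and 0.657) and the genome background (1.01, 1.25 and 1.08 fragments) as the lowest value. The solved values gave back the deposited −log10 p (relative difference at most 0.0003) for 100% of the peaks of every library. The fragments of 100% of 4933, 4958 and 4911 simulated peaks were also returned. These peaks were simulated with the same formulas, so their return checks the solving and not the formulas. Relative depth is the genome background over the scale factor and assumes that all runs used 1 genome size setting and the input as control, neither of which is stated. Tiles were laid from the start of each chromosome up to its last peak. Every Trp53 and Trp73 region was named. At Trp63 the 3 longest over all lists and each region missing at a stage with a fold of at least 5 were named, and the rest by counts or as values chosen afterwards. The members and lists were chosen with earlier results of these data known. p53 target genes and cell type markers were not located. Python 3.11.15, pandas 2.3.3, NumPy 2.4.6 and SciPy 1.17.1 were used.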

Additional observations from a re-analysis of the deposited data

How the results depend on the processing

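No paired analysis was possible because each stage had 1 library and no result came from a test, and no replicate was left out for the same reason. The 27 counts and lengths by locus and by stage or class were recomputed, which gave 180 values, 142 of them within 1.5 times the reported one. At a −log10 q of at least 5, Trp63 held 1 peak (598 bp) in proliferation and 7 peaks at 36 h, with 1 region at all 3 stages and 0 in proliferation only, and Trp53 had 1 region at all 3 stages. With a fold of at least 5, Trp63 held 1 peak (598 bp) in proliferation, 7 at 36 h and 12 at 72 h, with 1 region at all 3 stages, 13 without a proliferation peak and 0 in proliferation only. Trp53 then had 1 region at all 3 stages, and Trp73 had 0 peaks (0 bp) at 72 h and 0 regions at all 3 stages. In lists of equal length, Trp63 held 5 peaks (3008 bp) at 36 h, 1 region at all 3 stages and 13 without a proliferation peak, and Trp53 had 1 region without a proliferation peak. Merging peaks within 1 kb left 1 Trp63 region at all 3 stages, 8 without a proliferation peak and 2 in proliferation only. At Trp53 it left 1 region at all 3 stages and 1 without a proliferation peak. Shares over all regions of the series were not recomputed for this merging. Windows widened by 50 kb on each side held 10 peaks (3688 bp) in proliferation and 20 peaks (7228 bp) at 36 h at Trp63. The widened Trp63 window had 28 peaks at 72 h, which covered 14392 bp. Its length ratios over proliferation, at 36 h and at 72 h, were thus above 1 but smaller than those reported. The size of the Trp63 ratios therefore depends on the window edges, and the widened window was not compared with tiles. At Trp53 the widened windows held 8 peaks (5395 bp) at 36 h and 7 peaks at 72 h. At Trp73 they held 3, 7 and 8 peaks with 955, 4071 and 5413 bp in the order of the stages. Reducing the later libraries to the depth of proliferation, with or without its median background, counting peaks by summit, and requiring 50% of the shorter peak to overlap moved no value by more than 1.5 times. The reduced libraries kept their own p cutoffs, less strict than that of proliferation, and the deposited peak widths. In the settings that gave peak numbers, which exclude the merging within 1 kb and the overlap of 50%, Trp63 had more peaks at 72 h than in proliferation.

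The summits have 11 to 77 fragments, which limits the precision of their ratios. The cause of each change was not tested.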
